A study of Homo sapiens with 6 samples.

Results

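Integrins are membrane receptors built from 1 alpha and 1 beta chain that tie cells to the extracellular matrix, and laminin-332 is a basement membrane protein of epithelia that some of them bind. The 9 genes described here encode 5 integrin alpha chains (ITGA2, ITGA3, ITGA5, ITGA6 and ITGAV), 2 beta chains (ITGB1 and ITGB4) and 2 chains of laminin-332 (LAMA3 and LAMB3). They were chosen with earlier results of these data known. Matched by gene symbol to the 25662 rows of the deposited table, all 9 were found. RNA sequencing compared libraries of HCT116, an established human colorectal carcinoma line. The cells were transfected with a control siRNA (n = 3, called controls here) or with an siRNA against RRN3 (n = 3, called the knockdown). RRN3 is the factor that recruits RNA polymerase I to ribosomal RNA genes. All 6 libraries came from cells grown in McCoy's 5a medium with 10% serum, and all carry the genotype of this 1 line. The labels describe biological replicates but do not say whether they were separate cultures. Neither the time after transfection nor the siRNA sequence is given in the sources used here.

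As background, ITGB1 pairs with each of the 5 alpha chains, whereas ITGB4 pairs only with ITGA6. The α3β1, α6β1 and α6β4 receptors bind laminins, α2β1 binds collagens as well as laminins, and α5β1 and the αv receptors recognise the Arg-Gly-Asp motif of fibronectin and vitronectin. The α6β4 receptor anchors epithelial cells to laminin-332 at hemidesmosomes, where plectin links it to keratin filaments. Laminin-332 holds the chains encoded by LAMA3 and LAMB3, and in the intestine it lies beneath the surface epithelium.

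Values are TPM, a transcript abundance scaled for length and library total by the authors, which keeps no record of how deeply a library was sequenced, so depth is unknown. Changes are differences of log2(TPM + 1), knockdown minus control, a scale that understates the change of low genes, tested with limma across the 12157 genes whose mean was at least 1 TPM. A gene rose or fell only where its Benjamini-Hochberg adjusted p was under 0.05. The RRN3 transcript fell to 9.73% of its control level (14.1 to 20.9 TPM against 0.925 to 2.70 TPM, limma adjusted p = 0.000301, exact two-sided permutation p = 0.1, the smallest that 3 against 3 allow). Both libraries numbered 1 stood apart from the others of their group on the second principal component, which held 23.4% of the variance. Their deviations from the group means correlated with transcript GC content across genes at -0.45 for the control and -0.50 for the knockdown. Correlations of the opposite sign were found in control replicate 2 (0.42) and knockdown replicate 3 (0.46), and those of the remaining 2 libraries were 0.066 and 0.16. Genes are not independent, so these values only describe the libraries. Results are therefore given with and without both libraries numbered 1 where that matters.

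The HCT116 label was checked against epithelial markers. Of 11 such markers 10 were in the table, 8 were tested and 3 rose (KRT18, KRT8 and KRT19, 2.29-fold, 2.29-fold and 2.01-fold), while 0 fell. The shares over all tested genes were 11.2% that rose and 19.0% that fell. The 5 other markers tested did not pass. Of these CDX2 (16.1 and 12.8 TPM in the group means) and CLDN7 (222 and 208 TPM) were lower in knockdown libraries without overlap, as were 26.9% of all tested genes. KRT20 and VIL1, markers of mature enterocytes, were at most 0.722 and 0.337 TPM in any library and were not tested. EPCAM was at 124 ± 20.8 TPM in control and 134 ± 31.1 TPM in knockdown libraries (mean ± SD, n = 3 here and throughout, limma adjusted p = 0.716). The fibroblast markers summed to 8.64 to 10.8 TPM in control and 6.90 to 7.79 TPM in knockdown libraries, nearly all of it COL1A1, with DCN, LUM, FAP and COL1A2 listed at 0 throughout. The sum of 8 endothelial markers was at most 0.858 TPM in every library, and that of 6 immune markers was at most 1.53 TPM, with CD3E listed at 0.

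Of the 9 genes, 4 rose and none of the other 5 passed in either direction, against 11.2% of all tested genes that rose, 19.0% that fell and 30.3% that passed either way. The 4 were ITGA3, ITGB4, LAMB3 and LAMA3, and they were also the members whose groups did not overlap, against 17.9% of tested genes that were higher without overlap and 26.9% that were lower. Rises made up 37.2% of all calls as reported, and 50.2% with median-of-ratios scaling, 49.1% with quantile normalization and 50.8% with the GC trend removed. Under these 3 settings 6, 5 and 6 members rose, while the share of all tested genes that rose was 16.9%, 18.1% and 22.7%. The median log2 change of the 9 was 0.55, beside -0.048 over all tested genes. It was 0.24 without knockdown replicate 1 and 0.40 without both libraries numbered 1, beside -0.15 and -0.094 over all genes tested there. Because the members were chosen with earlier results known, the comparison with all tested genes only describes them, and no set test was run. In bulk RNA, more transcript per cell and more cells that express a gene cannot be told apart. TPM is also scaled to the library total, so a rise in TPM need not be a rise in transcript per cell.

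**Figure D1:**
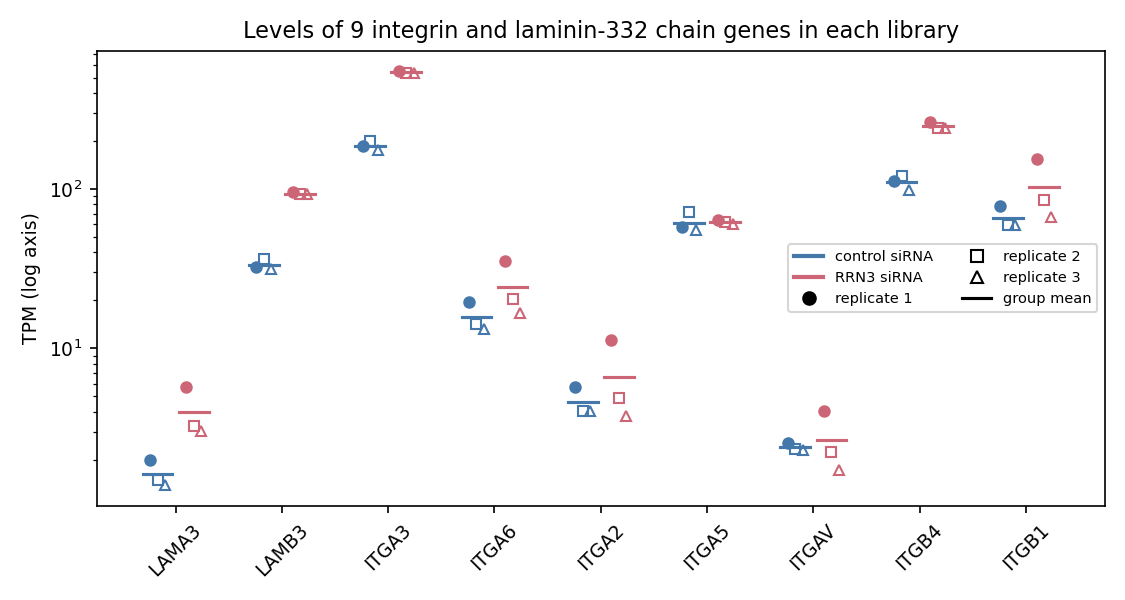
Level of each of the 9 genes in every library, in TPM on a log axis, with symbols for replicates 1 to 3, colours for the siRNA and a line at each group mean. ITGA3, ITGB4, LAMB3 and LAMA3 are higher in every knockdown library, and replicate 1 stands above replicates 2 and 3 for LAMA3, ITGA6, ITGA2, ITGAV and ITGB1.

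The laminin-332 chains come first as the ligand. LAMB3, the β3 chain, maps to the minus strand of chromosome 1 (209614870 to 209652466, GRCh38, GENCODE 29). It was at 32.5, 36.6 and 31.6 TPM in control replicates 1 to 3 and at 95.4, 92.4 and 92.8 TPM in knockdown replicates 1 to 3. The 3 knockdown libraries lay close together, and all were above the highest control. LAMB3 rose 2.79-fold, with a log2 change of 1.45 (SE 0.086, adjusted p = 3.60e-05), and this was the 113th largest rise among the tested genes.

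LAMA3, the α3 chain, maps to the plus strand of chromosome 18 (23689443 to 23956222). It was a rare transcript, at 1.99, 1.48 and 1.39 TPM in control and at 5.71, 3.26 and 3.02 TPM in knockdown replicates 1 to 3. Replicate 1 was the highest of each group, and the lowest knockdown library was above the highest control. LAMA3 rose 2.47-fold in mean TPM, with a log2 change of 0.90 (SE 0.23, adjusted p = 0.0201). The call ended without control replicate 2 (adjusted p = 0.0815), without control replicate 3 (0.0716) and with no filter on low values (0.0572), and it held without both libraries numbered 1 (0.00310). The LAMA3 call also ended with a minimum log2 change of 1, which makes 4 of 18 alternatives. LAMA3 isoforms start at widely separated sites, and the table holds 1 value for all of them.

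The levels of LAMB3 and LAMA3 were far from equal per length. LAMB3 held 21.3 ± 4.36 times the TPM of LAMA3 in control and 25.3 ± 7.51 times in knockdown libraries, and those ranges overlapped.

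RefSeq promoter windows on GRCh38.p14, reaching from 250 bases before to 50 bases after a start site, matched 7 of the 9 genes, with 12 windows in all. ITGA3 and ITGB4, both of which rose, had no window, so their promoters were not searched. AP-1, the dimer of FOS and JUN proteins, binds the letters TGACTCA, which read TGAGTCA on the other strand, and these letters were picked after they had been seen in the windows. These letters were in 3 of the 12 windows and in 3 of the 7 genes, LAMA3, LAMB3 and ITGA5, beside 4.95% of all 35116 windows and 6.05% of all 27305 genes. Because of how the letters were picked, nothing is read from that difference, and the stretches are printed to show where the letters lie. Each stretch below is written 5′ to 3′ on the strand of its gene, with the AP-1 letters in capitals.
LAMA3, first match, chr18:23872885-23872911, plus strand: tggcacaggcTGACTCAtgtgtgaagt
LAMA3, second match, chr18:23872941-23872967, plus strand: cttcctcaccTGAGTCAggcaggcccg
ITGA5, chr12:54419256-54419282, minus strand: ctccccgcgtTGAGTCAttcgcctctg
LAMB3, chr1:209651395-209651624, minus strand: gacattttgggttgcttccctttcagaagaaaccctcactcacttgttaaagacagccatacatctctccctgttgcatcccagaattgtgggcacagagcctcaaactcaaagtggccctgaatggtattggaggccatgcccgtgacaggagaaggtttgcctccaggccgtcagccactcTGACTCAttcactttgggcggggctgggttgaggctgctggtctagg

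The LAMA3 matches begin 125 and 69 bases before a start site that lies 183577 bases inside the gene as GENCODE 29 draws it. Both printed LAMA3 stretches overlap an untranslated region that GENCODE gives for the gene. The LAMB3 match begins 67 bases before the most downstream of 3 RefSeq start sites of that gene, outside the untranslated regions that GENCODE gives. The ITGA5 match begins 6 bases before the start site, and its printed stretch overlaps an untranslated region of GENCODE. LAMA3 and LAMB3 rose, whereas ITGA5, described further on, did not pass. Sp1 letters (GGGCGG, or CCGCCC on the other strand) were in 9 of the 12 windows, beside 45% of all windows, and TEAD letters (GGAATG, or CATTCC) in 2 of the 12, those of ITGA5 and ITGB1, beside 14%. Some windows of 1 gene overlap, and a match of letters is not evidence of binding.

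Among the laminin-binding alpha chains, ITGA3 carried the largest change of the 9. ITGA3 encodes the α3 chain and maps to the plus strand of chromosome 17 (50055968 to 50090481). It was at 185, 201 and 175 TPM in control and at 547, 536 and 534 TPM in knockdown libraries, so that the knockdown libraries differed from each other by less than the control libraries did. ITGA3 rose 2.88-fold, with a log2 change of 1.53 (SE 0.073, adjusted p = 1.88e-05, 94th largest rise of the tested genes).

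ITGA6, the α6 chain, which maps to the plus strand of chromosome 2 (172427354 to 172506282), did not pass. It was at 19.6, 14.2 and 13.2 TPM in control and at 35.4, 20.2 and 16.7 TPM in knockdown libraries. Replicate 1 was the highest of each group, and knockdown replicate 3 was below control replicate 1. The log2 change was 0.54 (95% interval -0.085 to 1.16, adjusted p = 0.175). It passed upward without both libraries numbered 1 (log2 change 0.40, adjusted p = 0.0378), with the GC trend removed (adjusted p = 0.00559), and with median-of-ratios scaling or quantile normalization (adjusted p = 0.0217 and 0.0408). Without knockdown replicate 1 alone it was 0.24 (adjusted p = 0.321).

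The collagen-binding chain gene ITGA2 maps to the plus strand of chromosome 5 (52989326 to 53094779). It was at 5.71, 4.04 and 4.02 TPM in control and at 11.3, 4.90 and 3.77 TPM in knockdown libraries. Knockdown replicate 1 alone exceeded every control, and replicate 3 was below every control. The log2 change was 0.34 (95% interval -0.44 to 1.12, adjusted p = 0.495), and it turned to -0.062 without knockdown replicate 1.

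The chains that recognise Arg-Gly-Asp also did not pass. ITGA5, the fibronectin receptor chain, maps to the minus strand of chromosome 12 (54395261 to 54419460). It was at 57.6, 71.3 and 55.2 TPM in control and at 64.1, 61.6 and 60.2 TPM in knockdown libraries, with the second group inside the range of the first. The log2 change was 0.022 (95% interval -0.23 to 0.27, adjusted p = 0.910), an interval that leaves out the change of any member that rose. ITGAV, the αv chain, maps to the plus strand of chromosome 2 (186590065 to 186680901). It was at 2.56, 2.32 and 2.29 TPM in control and at 4.03, 2.24 and 1.73 TPM in knockdown libraries, which spread on both sides of the controls. The log2 change of ITGAV was 0.066 (95% interval -0.47 to 0.61, adjusted p = 0.867), and it was -0.19 without knockdown replicate 1.

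Of the beta chains, ITGB4 rose. The β4 chain has an unusually long cytoplasmic tail that binds plectin, and its gene maps to the plus strand of chromosome 17 (75721328 to 75757818). It was at 112, 121 and 98.3 TPM in control and at 262, 242 and 243 TPM in knockdown libraries. All knockdown libraries were far above the highest control, with no overlap. ITGB4 rose 2.26-fold, with a log2 change of 1.17 (SE 0.092, adjusted p = 0.000122). The gene overlaps GALK1, a galactose kinase gene on the opposite strand, and the sources used here do not say whether counting used the strand. GALK1, named after its values were seen, fell from 49.5 ± 4.61 to 29.01 ± 1.69 TPM.

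ITGB1, the shared β1 chain, maps to the minus strand of chromosome 10 (32900319 to 33005792). It was at 78.8, 59.1 and 59.7 TPM in control and at 155, 85.2 and 66.9 TPM in knockdown libraries. Replicate 1 was again the highest of each group, and knockdown replicate 3 was below control replicate 1. The log2 change was 0.55 (95% interval -0.10 to 1.201, adjusted p = 0.184). It passed upward without both libraries numbered 1 (log2 change 0.34, adjusted p = 0.0325), without knockdown replicate 3 (adjusted p = 0.0427), with the GC trend removed (adjusted p = 0.00833) and with median-of-ratios scaling (adjusted p = 0.0262), and it was 0.21 without knockdown replicate 1 (adjusted p = 0.309). By log2(TPM + 1) over the 6 libraries, the genes most like ITGB1 were PARP4, DCBLD2 and SNHG26 (Pearson r of 0.998, 0.998 and 0.997 among 8670 genes with a mean of at least 5 TPM). In each of these 3 genes replicate 1 was the highest library of both groups, and with 6 libraries in 2 groups such a correlation only describes the shared pattern.

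**Figure D2:**
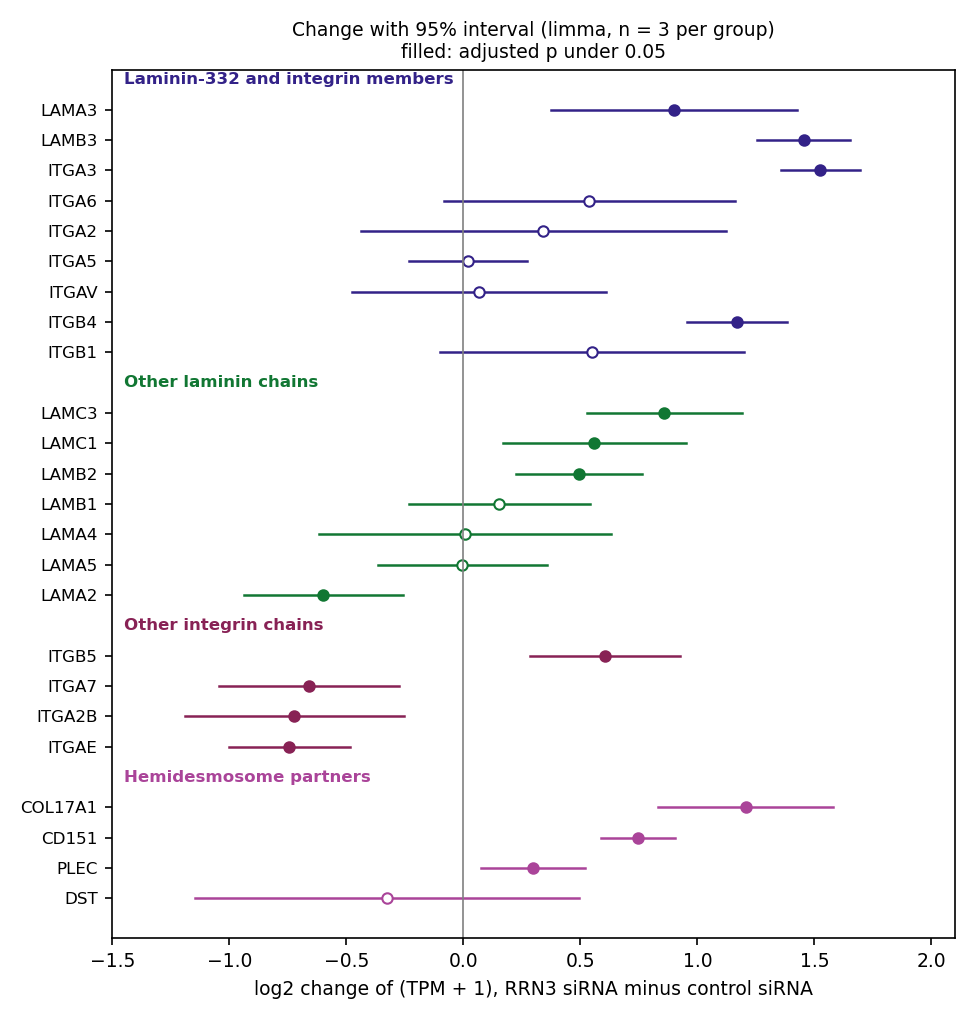
Log2 change of (TPM + 1), knockdown minus control, with its 95% interval from limma (n = 3 per group), for the 9 genes and for the tested members of 3 related lists; filled points passed the adjusted threshold of 0.05. ITGA3, LAMB3 and ITGB4 have narrow intervals above 0.95, whereas those of ITGA6, ITGA2, ITGAV and ITGB1 span 0.

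Without both libraries numbered 1, 6 of the 9 rose, against 14.5% of the genes tested in those 4 libraries. The members fell into separate classes of transcript GC content. ITGAV, ITGA6, ITGB1, ITGA2 and LAMA3 had median transcript GC contents of 38.2%, 41.5%, 41.8%, 42.9% and 46.5%, and ITGA5, ITGA3, LAMB3 and ITGB4 of 56.0%, 59.2%, 59.5% and 62.9%. In knockdown libraries the excess of replicate 1 over the mean of replicates 2 and 3, on the log2(TPM + 1) scale, was 0.70 to 1.21 in the first class and 0.03 to 0.11 in the second. In control libraries it was 0.11 to 0.49 and -0.12 to 0.03. Over the 9 genes, GC content and this excess correlated at r = -0.91 in knockdown and -0.77 in control libraries, as a description of genes that share the same libraries. Among the tested genes with GC contents of 40.9% to 43.3%, the median excess was 0.60 in knockdown and 0.32 in control libraries. ITGA2, ITGA6 and ITGB1 were above those medians in both groups. The part of GC content in the wide spread of these genes was not tested.

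**Figure D3:**
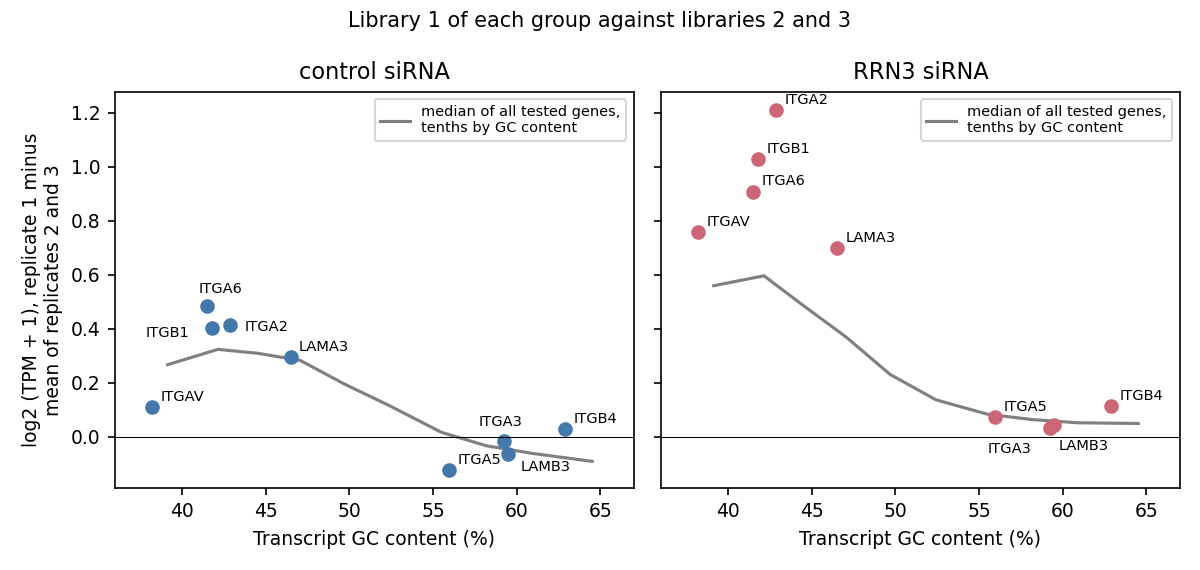
Replicate 1 minus the mean of replicates 2 and 3, on the log2(TPM + 1) scale, against transcript GC content in percent, for the 9 genes (points) and as medians of all tested genes in 10 bins by GC content (line), with 1 panel per group. The 5 genes with GC contents up to 46.5% are higher in replicate 1, by 0.70 to 1.21 in knockdown libraries, while the other 4 lie between -0.12 and 0.11 in both groups.

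Per length, ITGA3 was the most abundant of the 9 in both groups, followed by ITGB4, and neither range overlapped its neighbour. In control libraries ITGB1 came next and its range overlapped that of ITGA5, with ITGB1 ahead in 2 of 3 libraries. LAMB3, ITGA6, ITGA2, ITGAV and LAMA3 followed without overlap between neighbours. In knockdown libraries LAMB3 stood above ITGA5 in 3 of 3 libraries. The range of LAMB3 overlapped that of ITGB1, with ITGB1 ahead in 1 of 3 libraries. Neighbours among ITGA2, LAMA3 and ITGAV had overlapping ranges, but that order held in 3 of 3 libraries.

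The make-up of the alpha chain transcripts shifted toward ITGA3. Of the summed TPM of the 5 alpha chains, ITGA3 held 68.4%, 68.6% and 70.1% in control and 82.7%, 85.8% and 86.6% in knockdown libraries. The share of ITGA5 was 21.3%, 24.4% and 22.1% in control and 9.68%, 9.85% and 9.77% in knockdown libraries. Neither share overlapped between groups. The sum itself was 271 ± 21.4 TPM in control and 634 ± 24.1 TPM in knockdown libraries, so that the share of ITGA5 was lower while its own level showed no change that passed. The share of ITGA6 was 5.80 ± 1.27% and 3.76 ± 1.39%, and its range overlapped, as did that of ITGA2. ITGAV held 0.792% to 0.946% in control and 0.281% to 0.610% in knockdown libraries, without overlap. These shares follow from the levels given for each gene and are a description with no test.

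**Figure D4:**
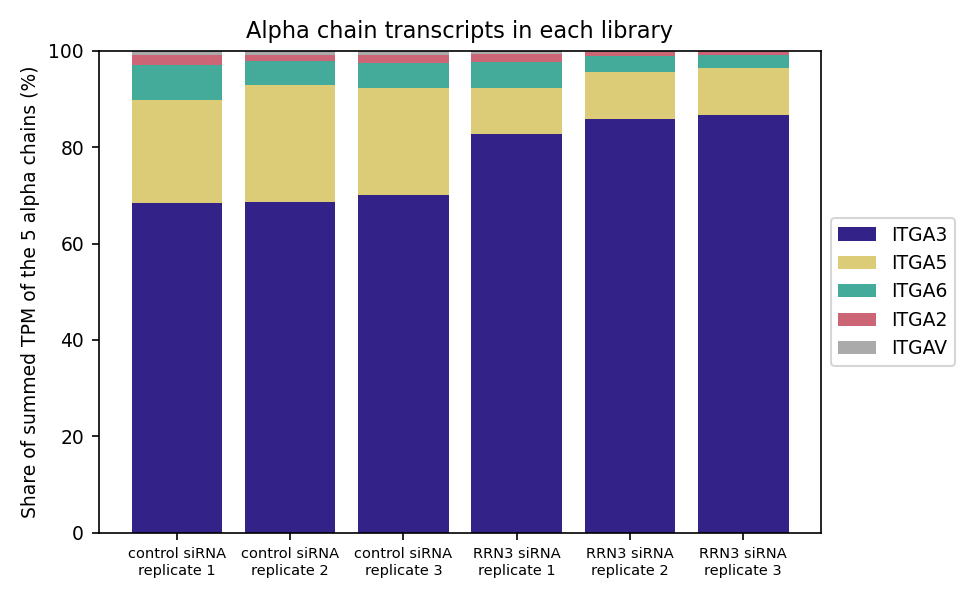
Share of each alpha chain gene in the summed TPM of ITGA2, ITGA3, ITGA5, ITGA6 and ITGAV, in percent, as stacked bars for each of the 6 libraries. ITGA3 takes 68.4% to 70.1% in control and 82.7% to 86.6% in knockdown libraries, and ITGA5 21.3% to 24.4% and 9.68% to 9.85%.

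The TPM of the partner chains of α6β4 was unequal, with ITGA6 at 0.142 ± 0.0300 of ITGB4 in control and 0.0957 ± 0.0346 in knockdown libraries, ranges that overlapped. ITGB4 held 1.71 ± 0.324 times the TPM of ITGB1 in control and 2.72 ± 0.974 times in knockdown libraries, again with overlap. ITGA3, the partner of ITGB1 in α3β1, held 2.35 to 3.39 times its TPM in control libraries. In knockdown libraries it held 3.53 to 7.98 times, without overlap, the lowest in replicate 1. These ratios are a description with no test. RNA levels do not give the number of assembled receptors.

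Other laminin chains gave a mixed picture. The counts of this list and of those below stand beside 11.2% of all tested genes that rose and 19.0% that fell. The lists were written with earlier results of these data known. Of 9 such genes 7 were tested, of which 3 rose, 1 fell and 3 did not pass, with a median log2 change of 0.15. The γ3 chain gene LAMC3 rose from 3.29 ± 0.0666 to 6.81 ± 0.791 TPM, LAMB2 from 50.7 ± 6.45 to 71.7 ± 6.46 TPM and LAMC1 from 40.4 ± 8.49 to 59.4 ± 7.91 TPM. LAMA2, a chain best known from muscle, fell from 6.62 ± 0.799 to 4.02 ± 0.320 TPM. LAMA5, the main alpha chain of adult basement membranes, was at 39.8 ± 5.93 TPM in control and 39.8 ± 7.07 TPM in knockdown libraries (adjusted p = 0.985). LAMB1 and LAMA4 had log2 changes of 0.15 and 0.0069 (adjusted p = 0.539 and 0.989), and that of LAMB1 ranged from 0.062 without knockdown replicate 1 to 0.30 without control replicate 1. The LAMB2 call ended under 2 of 19 alternatives, without knockdown replicate 2 (adjusted p = 0.0570) and with a minimum log2 change of 1. The LAMC1 call ended under 6 of 19 and the LAMA2 call under 5.

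Of the other integrin chains 4 of 19 were tested, and 1 rose while 3 fell, with a median log2 change of -0.69. ITGB5, a partner of the αv chain, rose from 65.0 ± 10.5 to 99.1 ± 11.7 TPM (log2 change 0.61, adjusted p = 0.0132). ITGAE, which pairs with β7 on intraepithelial lymphocytes and binds E-cadherin of epithelial cells, also passed. ITGAE fell from a range of 45.9 to 56.7 TPM to one of 29.6 to 33.7 TPM (log2 change -0.74, adjusted p = 0.00200). The β7 gene ITGB7 was at 0.118 to 0.604 TPM over both groups and was not tested. ITGA7, a laminin-binding chain of muscle, fell from 7.31 ± 1.14 to 4.25 ± 0.567 TPM, and ITGA2B, the platelet αIIb chain, from 1.83 ± 0.709 to 0.684 ± 0.0667 TPM. The ITGA7 and ITGA2B calls each ended under 5 alternatives. Among the other partners of the αv chain, all below the minimum for testing, ITGB3 was at 0.138 to 0.413 TPM and ITGB6 at 0 to 0.0489 TPM over both groups. ITGB8 was at 0.189 to 0.267 TPM in control and 0.535 to 1.10 TPM in knockdown libraries, higher without overlap but not tested. Transcripts of the collagen-binding chain ITGA1 were at 0.0129 to 0.722 TPM.

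Of 4 tested partners of α6β4 at the hemidesmosome 3 rose and 0 fell, with a median log2 change of 0.52. Of all tested genes 11.2% rose and 19.0% fell. CD151, a tetraspanin that associates with the laminin-binding integrins, rose from 269 ± 10.8 to 452 ± 19.1 TPM. COL17A1, the transmembrane collagen XVII, rose from 2.47 ± 0.496 to 6.96 ± 0.471 TPM, and PLEC, plectin, from 85.2 ± 9.19 to 104.7 ± 5.65 TPM. The PLEC adjusted p was 0.0495 and its call ended under 12 of 19 alternatives, where the adjusted p reached 0.145 when control replicate 3 was left out. DST, which encodes dystonin, had a log2 change of -0.32 (adjusted p = 0.544), which ranged from -0.65 without control replicate 3 to -0.0059 without control replicate 1.

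Among basement membrane partners 8 of 14 were tested, of which 4 rose and 0 fell, with a median log2 change of 0.50. HSPG2, perlecan, rose from 10.5 ± 1.60 to 30.0 ± 2.75 TPM, COL4A5, a collagen IV chain, from 5.12 ± 2.03 to 15.04 ± 4.32 TPM, and AGRN, agrin, from 37.7 ± 4.03 to 51.6 ± 1.18 TPM. PXDN, the peroxidase that cross-links collagen IV, rose from 7.47 ± 0.884 to 11.5 ± 1.62 TPM. Of other integrin ligands 10 of 19 were tested, of which 3 rose and 0 fell, with a median log2 change of 0.015. THBS1, thrombospondin 1, rose from 1.30 ± 0.416 to 8.30 ± 2.63 TPM, and the matricellular genes CCN1 and CCN2 rose from 16.5 ± 1.62 to 41.8 ± 5.21 TPM and, in the same order, from 2.66 ± 0.207 to 6.34 ± 0.583 TPM. FN1, fibronectin, named after its values were seen, was at 7.89 ± 2.40 TPM in control and 6.33 ± 0.973 TPM in knockdown libraries (adjusted p = 0.419), and its log2 change ranged from -0.42 to -0.048 when 1 library was left out. Leaving out knockdown replicate 2 ended the AGRN call (adjusted p = 0.0565), as did a minimum log2 change of 1. The PXDN call ended under 5 alternatives.

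On the cytoplasmic side, 25 adaptors of adhesion sites were tested, of which 9 rose and 2 fell, with a median log2 change of 0.34. TNS4, a tensin that binds beta chain tails, rose from 10.9 ± 0.978 to 34.6 ± 1.19 TPM (log2 change 1.58, SE 0.11, adjusted p = 5.95e-05). PARVA, α-parvin of the complex with integrin-linked kinase, rose from 5.23 ± 0.345 to 14.5 ± 0.932 TPM. The actin crosslinkers ACTN4 and FLNA rose from 316 ± 16.5 to 514 ± 11.3 TPM and, in the same order, from 180.2 ± 24.6 to 349 ± 15.6 TPM. Both falls belonged to genes picked for naming once values were known, namely TGFB1I1, from 11.4 ± 1.46 to 5.30 ± 0.726 TPM, and TNS2, another tensin, from 7.34 ± 1.92 to 2.53 ± 0.256 TPM. With the GC trend removed 15 adaptors rose and 2 fell, in a fit where 22.7% of all tested genes rose and 22% fell.

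Of 17 tested genes of adhesion signalling 1 rose and 1 fell, with a median log2 change of 0.11. The adaptor gene CRK rose from 9.26 ± 2.94 to 21.3 ± 9.93 TPM and the kinase gene PAK1 fell from 42.4 ± 2.82 to 30.8 ± 4.03 TPM, and their calls ended under 5 and 4 alternatives. PTK2, focal adhesion kinase, named after its values were seen, was at 36.3 ± 7.91 TPM in control and 53.2 ± 20.8 TPM in knockdown libraries (adjusted p = 0.201). Its log2 change of 0.49 was 0.20 without knockdown replicate 1, and it passed upward without both libraries numbered 1 (adjusted p = 0.0343), with the GC trend removed (0.0182) and with median-of-ratios scaling (0.0258). With the GC trend removed 5 genes of this list rose and 1 fell, beside the same shares of all genes.

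Of 12 tested membrane partners 2 rose and 1 fell, with a median log2 change of -0.052. The tetraspanin genes TSPAN4 and CD82 rose from 35.2 ± 2.64 to 55.3 ± 1.92 TPM and, in the same order, from 19.8 ± 0.850 to 27.8 ± 2.85 TPM. SLC3A2, the heavy chain of CD98, which binds beta chain tails, fell from 274 ± 3.69 to 193 ± 6.30 TPM. Of 9 tested activators and inhibitors of integrins 1 rose and 0 fell, with a median log2 change of -0.024. The 1 was SHARPIN, an inhibitor of integrin activation, at 38.7 ± 1.07 and 46.3 ± 0.975 TPM (adjusted p = 0.0436), whose call ended under 10 alternatives. Of 15 tested genes of integrin traffic 2 rose and 0 fell, with a median log2 change of 0.20, namely EHD1, from 44.2 ± 5.18 to 72.6 ± 3.59 TPM, and NUMB, from 23.03 ± 4.86 to 33.9 ± 5.63 TPM, whose call ended under 8 alternatives.

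Of 7 tested proteases of matrix and chain processing 2 rose and 0 fell, with a median log2 change of 0.26. BMP1, a protease that trims laminin-332 chains, rose from 38.3 ± 0.170 to 66.6 ± 2.92 TPM, and PLAU, urokinase, from 59.1 ± 3.14 to 109 ± 8.37 TPM. Of 7 tested other matrix receptors 2 rose and 1 fell, with a median log2 change of 0.21. SDC4, the syndecan of focal adhesions, rose from 124 ± 5.24 to 297 ± 5.88 TPM, and DDR1, a collagen receptor kinase, from 141 ± 8.69 to 199 ± 4.93 TPM. RPSA, named as a laminin receptor and also a protein of the small ribosomal subunit, fell from 3733 ± 299 to 2604 ± 162 TPM. This change did not pass after the GC trend was removed (adjusted p = 0.0549) or under median-of-ratios scaling (0.121). It also did not pass with a minimum log2 change of 1.

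**Figure D5:**
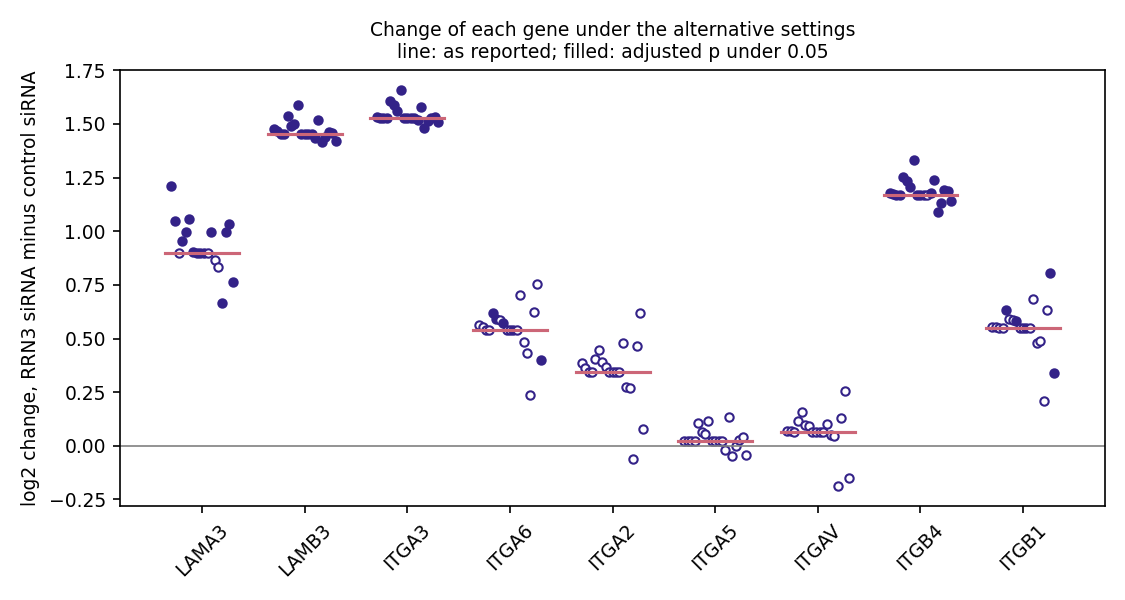
Log2 change of each of the 9 genes as reported (line) and under up to 19 alternative settings (points, filled where the adjusted p was under 0.05). ITGA3, LAMB3 and ITGB4 stay between 1.09 and 1.66, LAMA3 spans 0.67 to 1.21, and ITGA2, ITGA5 and ITGAV lie on both sides of 0.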

How the data were processed

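RNA sequencing of 6 HCT116 libraries was analysed, grouped by the labels. The labels name poly(A) RNA as the molecule and, in the extraction protocol, a Ribo-Zero step against ribosomal RNA followed by random-hexamer cDNA. The deposited table holds 1 TPM per gene symbol and library, computed by the authors. STAR, Salmon and the GRCh38 build are listed in the submitters' processing notes. Tool versions, annotation and any filters were not given in the sources used here. TPM keeps no depth, so no counting interval was computed. The labels describe biological replicates but not separate cultures or days. The p-values set the group difference against the spread between these libraries, moderated across genes, which may not be that between separate cultures.

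The limma package (3.58.1, R 4.3.3) was applied to log2(TPM + 1), for genes with a mean of at least 1 TPM, with group alone in the model, eBayes with an intensity trend and Benjamini-Hochberg adjustment over 12157 genes. Confidence intervals are at 95%. The fit was tested on simulated data with independent noise for each gene and library, which lack the deviations that genes share in these libraries. GC content (12144 tested genes) and gene coordinates came from GENCODE 29 on GRCh38, matched by symbol, and promoter sequences from RefSeq on GRCh38.p14. Python 3.11.15, pandas 2.3.3 and matplotlib 3.10.9 were used.

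The 9 members and the 16 gene lists, written from textbook knowledge, were chosen with earlier results of these data known. All members, RRN3 and the 3 genes most like ITGB1 by Pearson r were named. From each list up to 4 genes past the threshold with the smallest adjusted p were named, and every tested gene of the lists of laminin chains, integrin chains and hemidesmosome partners, except 1 item that is not reported here and was left out of its list. GALK1, FN1, PTK2, TGFB1I1, TNS2, ITGB3, ITGB6, ITGB7, ITGB8, ITGA1 and the marker genes that did not pass were named after their values were seen. Motifs were chosen after the promoter sequences had been seen. Alternatives were other pseudocounts (0.1, 0.5), filters, scalings, variance settings, a GC correction by loess (span 0.3), a replicate block, a minimum change and left-out libraries.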

Additional observations from a re-analysis of the deposited data

How the results depend on the processing

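Of the 46 named genes that passed, 32 passed under all 18 alternatives other than a minimum log2 change of 1 that gave them a value. RRN3, ITGA3, LAMB3 and TNS4 also passed that one. It left 53 genes that rose (0.436% of those tested), 82 that fell and 2 members that rose. The number of genes that rose was 2055 with median-of-ratios scaling, 2205 with quantile normalization and 2759 with the GC trend removed, against 1367 as reported, and 2037, 2284 and 2672 fell. Leaving out 1 library gave 788 to 1273 that rose and 1452 to 3000 that fell, the lowest of both without knockdown replicate 2, and 893 rose without control replicate 3. Members that rose numbered 3 to 5 in those fits, where 6.46% to 10.4% of the genes tested rose. The cause of these shifts was not tested.

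Same-numbered libraries deviated together with correlations of 0.419, 0.0954 and 0.159 for numbers 1 to 3. Only 3 of 6 libraries correlated best with their own number, and the labels state no pairs, so the numbers were not taken as pairs. Yet the second principal component followed the same order of numbers in both groups. It was 17.8, -5.12 and -13.6 in control and 31.6, -7.61 and -23.0 in knockdown libraries. Whether the numbers mark a shared effect was not tested. With a replicate block 2295 genes rose (18.9% of those tested) and 3251 fell. In that fit 6 members rose, with ITGA6 and ITGB1 passing (adjusted p = 0.00456 and 0.00765).

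Alternatives were run for the members, RRN3, the genes that the lists gave by rule, and GALK1, FN1, PTK2, TGFB1I1 and TNS2, and among these the direction turned for 5 genes, none of which had passed. Over fits without 1 library, ITGA2 ranged from -0.062 to 0.62, ITGA5 from -0.049 to 0.13, ITGAV from -0.19 to 0.25, LAMA4 from -0.23 to 0.21 and LAMA5 from -0.12 to 0.13. Without both libraries numbered 1, ITGA5, ITGAV and LAMA4 were at -0.043, -0.15 and -0.030. LAMA5 was at 0.076 with median-of-ratios scaling, 0.033 with quantile normalization, 0.028 with TPM rescaled after mitochondrial and ribosomal protein genes were dropped and 0.20 with the GC trend removed. A minimum mean of 5 TPM left LAMA3 and ITGAV untested.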
